A study of Mus musculus with 13 samples.

Results

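Excitation-contraction coupling and calcium handling were followed through 10 genes in mouse skeletal muscle: Ryr1, Cacna1s, Jph1, Jph2 and Stac3 of the coupling machinery, Casq1, Casq2 and Pvalb, which bind calcium, and Pln and Sln, which act on the calcium pump. Each gene was taken by its symbol from the 49315 rows of the count table. All 10 were found, and all 10 were among the 16496 genes that passed the filter on low counts. RNA sequencing of polyA-selected RNA had been done on 13 muscle samples, and the design asks how muscle responds to loss of the miR-181a2b2 locus and to diet. The groups were HFSC KO (n = 3), HFSC flox (n = 4), chow KO (n = 3) and chow flox (n = 3). KO mice were miR-181a2b2-/-, deleted systemically per the design text, and the controls were miR-181a2b2 flox/flox, so they carried floxed alleles rather than unmodified ones. HFSC is the diet's name in the labels, which do not spell it out and give neither age nor sex. Hindlimb ischemia is mentioned for the whole series, but no label says which limb a sample came from or when it was taken.

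In a skeletal muscle fibre, the action potential is sensed in the transverse tubule by the voltage-gated channel whose main subunit is Cacna1s. This channel opens the calcium release channel Ryr1 in the facing membrane of the sarcoplasmic reticulum, with Stac3 needed for the coupling and the junctophilins Jph1 and Jph2 holding the membranes together. Calsequestrins store calcium inside the reticulum, parvalbumin (Pvalb) buffers it in the cytosol of fast fibres, and phospholamban (Pln) and sarcolipin (Sln) restrain the pumps that return it.

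The libraries held 20830943 to 45710227 counts. A general muscle list (Acta1, Ckm, Ttn, Neb, Mb, Des, Mybpc1) summed to 50910 to 100100 CPM (counts scaled to a common library total), whereas 6 adipocyte markers summed to 25.1 to 118 CPM, although white adipose tissue is what the extraction protocol in the labels names. Reads at the deleted locus gave no check of the genotype: Mir181a-2 and Mir181b-2 had 0 reads in the 6 KO libraries and at most 2 in any of the 7 flox libraries, which is under the floor of 3 counts. Chow flox replicate 4 stood apart from its group. On the first principal component of log2 CPM, with 50.7% of the variance, it lay at 51.3, next to chow KO (51.8 to 88.6), while the other 9 libraries lay at -67.8 to -13.3. Counts of called genes in the comparisons that use chow flox are given with and without it. No label says that each sample came from its own animal, so a p-value covers the spread between these libraries, part of which may be technical.

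The locus encodes copies of miR-181a and miR-181b, shown here because the genotype removes them; the capitals mark the seed, bases 2 to 8, which both share. The mature sequences are from RefSeq (GRCm38.p6), at chr2:38852741-38852763 and chr2:38853845-38853868 on the plus strand, and copies on chromosome 1 give the same mature sequences.
miR-181a-5p: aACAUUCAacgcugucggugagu
miR-181b-5p: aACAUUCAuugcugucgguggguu
In the longest annotated 3′ UTR, 3 of the 10 genes held a match to this seed of at least 7 bases, against 21.0% of 20895 genes. None held the full match TGAATGTA, against 5.28% of genes. The core GAATGT, which all of these matches share, began at base 355 of 992 in Sln, 121 of 2541 in Jph1 and 181 of 1697 in Jph2. Capitals mark the match, which is TGAATGT in Jph1 and GAATGTA in Sln and Jph2.
Sln: agccccaaggaaGAATGTAggaggaa
Jph1: cactttaatttTGAATGTgactcagt
Jph2: gccagaggaagaGAATGTAcccccga
These letters are a description of the transcripts and not evidence of binding. With all 13 libraries, none of the 3 genes passed the test for KO against flox on either diet. On chow the log2 fold changes were -1.19 ± 0.86 (SE) for Sln, 0.52 ± 0.20 for Jph1 and 0.42 ± 0.20 for Jph2. On HFSC they were 0.14 ± 0.79 for Sln, -0.15 ± 0.19 for Jph1 and -0.11 ± 0.19 for Jph2. Without chow flox replicate 4, Jph1 (0.84, edgeR adjusted p = 0.000564) and Jph2 (0.66, adjusted p = 0.00712) passed as higher in chow KO. In that fit 3534 of 16972 genes tested passed as higher.

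Levels of the 10 genes spanned more than 3 orders of size. Per kilobase of annotated exon, Pvalb averaged 6841 CPM per kb over all 13 libraries, Casq1 1555, Ryr1 272.6, Jph2 202.2, Cacna1s 164.6, Sln 99.6, Jph1 91.1, Stac3 86.5, Casq2 27.6 and Pln 2.999. Neighbours in this order kept it in all 13 libraries from Pvalb down to Cacna1s, and again from Stac3 to Casq2 to Pln. Between Cacna1s and Stac3 the order was not stable: Cacna1s was above Sln in 9 of 13 libraries, Sln above Jph1 in 6 and Jph1 above Stac3 in 5. Casq2, the calsequestrin of heart and slow fibres, made up 1.79 ± 0.68% of the 2 calsequestrins per length in HFSC KO, 1.40 ± 0.53% in HFSC flox, 2.13 ± 0.37% in chow KO and 2.11 ± 0.49% in chow flox (SD). Pln, best known from heart and slow muscle, was the lowest member, with 71 to 420 reads per library.

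**Figure D1:**
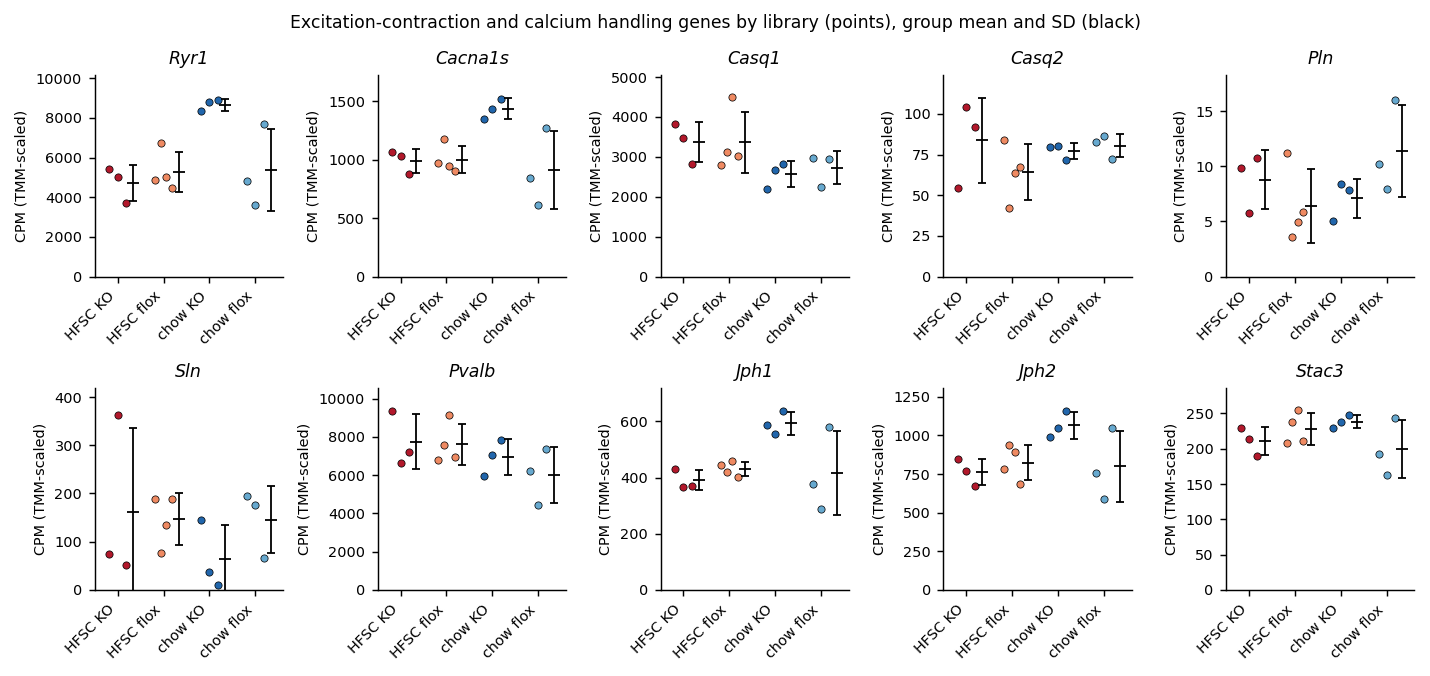
CPM (vertical axis, linear, TMM-scaled) of each of the 10 genes in every library, with 1 point per library, colour by group, and the group mean and SD in black; the SD bars of Sln are cut off at 0. Ryr1, Cacna1s, Jph1 and Jph2 share a shape, high in chow KO and in chow flox replicate 4, while Sln ranged from 10.7 to 362.5 CPM.

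Among KO muscles, Ryr1 and Jph1 were lower on HFSC than on chow, and no other member passed the test. Ryr1, the release channel (GRCm38 chromosome 7, 29003344 to 29125179, minus strand), had 5434, 5024 and 3725 CPM in HFSC KO, against 8326, 8801 and 8895 CPM in chow KO. Every HFSC KO library was thus below every chow KO library, and the means were 4728 ± 892 and 8674 ± 305 CPM (SD, n = 3 each). Ryr1 fell to 0.545 times its chow KO level (log2 fold change -0.88 ± 0.26 SE, edgeR adjusted p = 0.0307). Jph1, the junctophilin typical of skeletal muscle (chromosome 1, 16964560 to 17097889, minus strand), had 430.8, 368.0 and 370.6 CPM in HFSC KO, against 589.1, 555.4 and 635.8 CPM in chow KO, again with no overlap. It fell to 0.657 times its chow KO level (log2 fold change -0.61 ± 0.20, adjusted p = 0.0454). These are 2 of 10 members, both lower, in a comparison where 25.5% of all tested genes passed in either direction and 10.6% passed as lower in HFSC, so the count is not a result particular to these genes. Both calls sat close to the threshold. Ryr1 missed it without any of the 3 chow KO libraries or HFSC KO replicate 3 or 4, with log2 fold changes of -0.92 to -0.76, and Jph1 missed it when any of 11 of the 13 libraries was left out (all but chow flox replicates 3 and 4), with log2 fold changes of -0.69 to -0.56. Over all alternatives the adjusted p ran from 0.00329 to 0.0972 for Ryr1 and from 0.00243 to 0.136 for Jph1.

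The other coupling genes also averaged lower in HFSC KO, without passing the threshold. Cacna1s, the voltage sensor (chromosome 1, 136052750 to 136119822, plus strand), had 1062, 1033 and 874.1 CPM in HFSC KO, against 1345, 1437 and 1524 CPM in chow KO (log2 fold change -0.54 ± 0.22, edgeR adjusted p = 0.0878). Jph2, the junctophilin shared with the heart (chromosome 2, 163336242 to 163397993, minus strand), had 845.4, 769.7 and 673.3 CPM in HFSC KO, against 988.5, 1050 and 1160 CPM in chow KO (-0.48 ± 0.20, adjusted p = 0.0905). For both genes the groups did not overlap. Stac3, the adaptor (chromosome 10, 127501686 to 127508823, plus strand), overlapped between the groups, at 190.1 to 229.8 CPM in HFSC KO and 229.5 to 248.3 CPM in chow KO (-0.18 ± 0.15, adjusted p = 0.398). In all, 5 of 10 members had non-overlapping groups, 4 of them lower in HFSC KO (Ryr1, Cacna1s, Jph1, Jph2) and Casq1 higher, against 50.6% of all tested genes. The median log2 fold change was -0.03 over the 10 members and 0.02 over all tested genes.

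**Figure D2:**
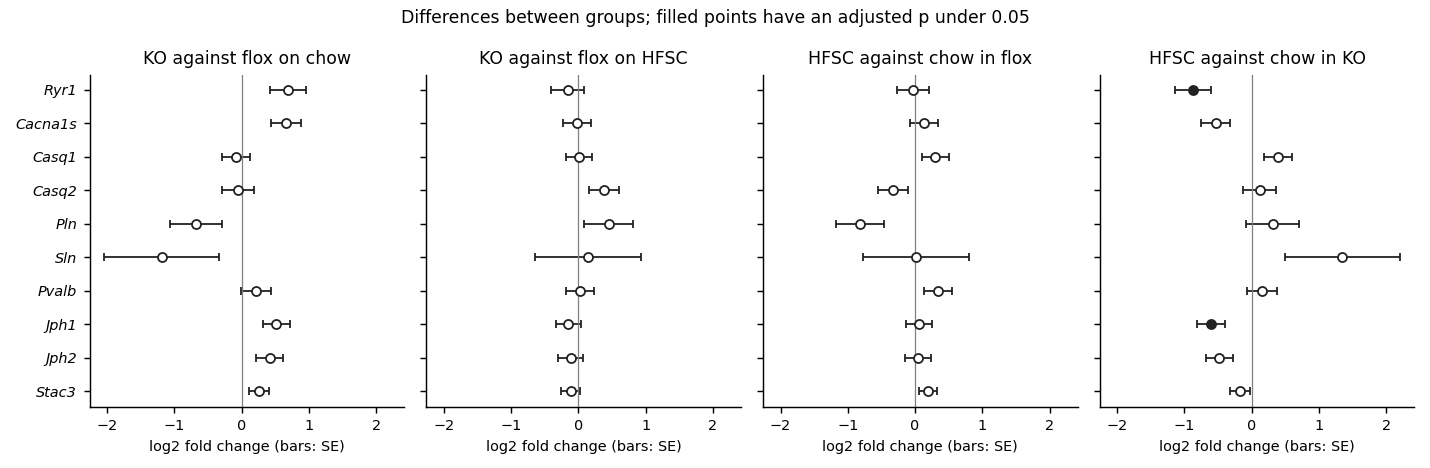
Log2 fold change of each gene (horizontal axis, log2 scale) with SE bars in 4 comparisons, where positive means higher in the group named first; filled points have an edgeR adjusted p under 0.05. Ryr1 (-0.88) and Jph1 (-0.61) in the HFSC against chow comparison of KO muscle are the filled points.

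On chow, the same coupling genes had higher means in KO, but none passed the test against flox. Ryr1 had 8326, 8801 and 8895 CPM in chow KO, against 4840, 3614 and 7675 CPM in chow flox replicates 2, 3 and 4 (log2 fold change 0.69 ± 0.26, edgeR adjusted p = 0.0959). Cacna1s had 1345, 1437 and 1524 CPM in chow KO, against 843.4, 615.5 and 1272 CPM in chow flox (0.66 ± 0.22, adjusted p = 0.0696). In both cases chow flox replicate 4 lay close under the KO libraries and the other flox libraries far below. Jph1 had 555.4 to 635.8 CPM in chow KO, against 376.9, 287.6 and 579.8 CPM in chow flox (0.52 ± 0.20, adjusted p = 0.103), and replicate 4 fell inside the KO range. Jph2 (0.42 ± 0.20, adjusted p = 0.163) and Stac3 (0.26 ± 0.15, adjusted p = 0.236) overlapped likewise. Thus 0 of 10 members passed, against 11.5% of all tested genes, and 2 of 10 had non-overlapping groups, against 24.8%. At an unadjusted p under 0.05 the count was 3, and DESeq2 called 2, Ryr1 and Cacna1s.

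The edgeR calls on chow depended on chow flox replicate 4. Without it, 5 members passed as higher in chow KO: Ryr1 (log2 fold change 1.04), Cacna1s (0.98), Jph1 (0.84), Jph2 (0.66) and Stac3 (0.43). That library lay beside chow KO on the first principal component, with which Ryr1, Cacna1s, Jph1 and Jph2 had r of 0.90 to 0.94. Leaving it out is thus not independent of the difference in these genes. The number of genes called over the whole table also grew, to 7261 (42.8% of genes tested) without that library, against 1898 with it. All 5 members were higher, whereas of 16972 genes tested 3534 passed as higher and 3727 as lower. The library also enters the shared estimate of spread, and without it 4 members (Ryr1, Cacna1s, Jph1 and Jph2) passed as lower in HFSC KO than in chow KO. In that fit 36.0% of all genes tested passed in either direction, and 2725 of 16972 passed as lower. The comparison of KO with flox on chow and that of HFSC with chow in KO use the same chow KO libraries, so the high Ryr1 level there enters both.

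Transcripts of connective tissue and macrophages moved in the opposite direction to the coupling genes. A list of 12 fibroblast and matrix genes summed to 3016 to 3628 CPM in HFSC KO, 3395 to 5195 CPM in HFSC flox and 443 to 705 CPM in chow KO. In chow flox it summed to 4222 and 7649 CPM in replicates 2 and 3 and to 1423 CPM in replicate 4. All 12 of its genes rose in HFSC KO against chow KO, and all 12 fell in chow KO against chow flox. Of 10 macrophage genes, 9 rose in HFSC KO against chow KO and 9 fell in chow KO against chow flox, and these 4 counts were the same without chow flox replicate 4. The macrophage sums were 223 to 283 CPM in HFSC KO, 223 to 358 in HFSC flox, 44.98 to 79.5 in chow KO and 118 to 1032 in chow flox. Of 8 endothelial genes, 7 rose and 1 fell in HFSC KO against chow KO, with sums of 468 to 505 CPM in HFSC KO and 206 to 258 CPM in chow KO, and 4 of 7 smooth muscle and 3 of 6 adipocyte genes rose. Of all 16496 tested genes, 2459 rose in HFSC KO against chow KO and 1670 fell in chow KO against chow flox. No gene of these lists was at 0 in all libraries. The general muscle list summed to 66250 to 79030 CPM in HFSC KO, 69250 to 85080 in HFSC flox, 86850 to 100100 in chow KO and 50910 to 96190 in chow flox, where replicate 4 was the highest. In whole muscle, fewer fibres in the sample and less of a transcript per fibre cannot be told apart. The part that tissue makeup plays in the member results was not tested.

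**Figure D3:**
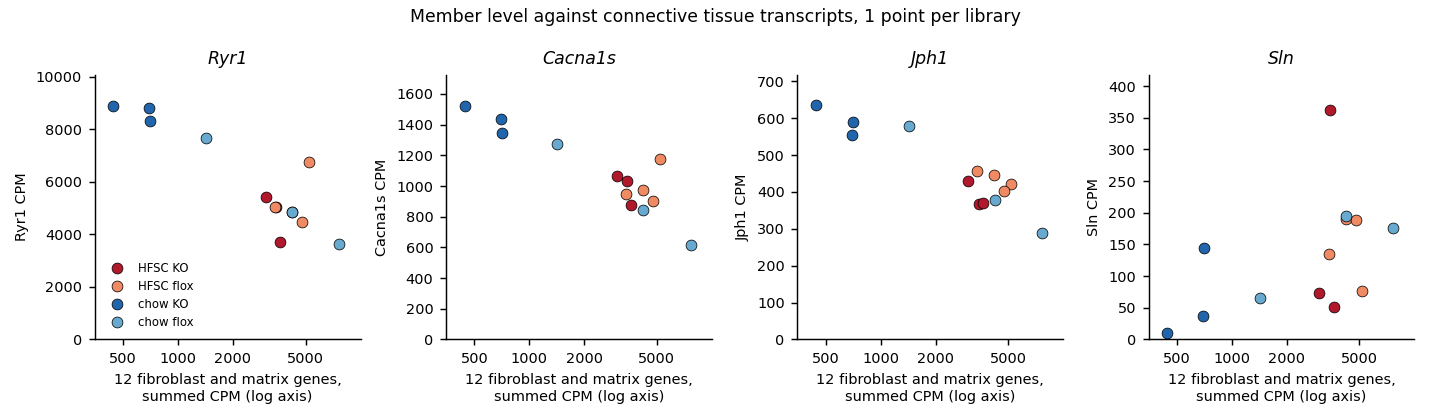
CPM of Ryr1, Cacna1s, Jph1 and Sln (vertical axes, linear) against the summed CPM of 12 fibroblast and matrix genes (horizontal axis, log scale), 1 point per library. For Ryr1, Cacna1s and Jph1 the libraries with the least matrix signal, the 3 chow KO (443 to 705 CPM) and chow flox replicate 4 (1423 CPM), had the highest levels in the plot.

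Set against the general muscle list within each library, the differences between HFSC KO and chow KO became smaller for Ryr1, Cacna1s, Jph1 and Jph2, with Ryr1 still the largest of them, and the difference in Stac3 turned round. Per 1000 CPM of that list, Ryr1 had 65.1 ± 7.8 CPM in HFSC KO, 70.5 ± 6.4 in HFSC flox, 91.6 ± 3.8 in chow KO and 76.9 ± 5.1 in chow flox (SD, n = 3, 4, 3 and 3). The HFSC KO libraries ranged over 56.2 to 70.4 and the chow KO libraries over 88.9 to 95.9, a ratio of means of 0.711. Cacna1s had 13.7 ± 0.7 in HFSC KO and 15.1 ± 0.4 in chow KO, a ratio of 0.905. Jph1 had 5.40 ± 0.22 in HFSC KO and 6.27 ± 0.56 in chow KO (0.861), and Jph2 had 10.6 ± 0.3 in HFSC KO and 11.2 ± 0.4 in chow KO (0.939). Stac3 had 2.92 ± 0.07 in HFSC KO and 2.52 ± 0.11 in chow KO (1.16), with no overlap between the groups, whereas its CPM stood at 0.885 times the chow KO level. On the same scale chow KO against chow flox gave ratios of 1.19 for Ryr1, 1.16 for Cacna1s, 1.05 for Jph1, 0.962 for Jph2 and 0.849 for Stac3. These ratios are descriptions without a test, and the list holds Ttn, which itself had a log2 fold change of -0.64 ± 0.25 in HFSC KO against chow KO (adjusted p = 0.0734).

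**Figure D4:**
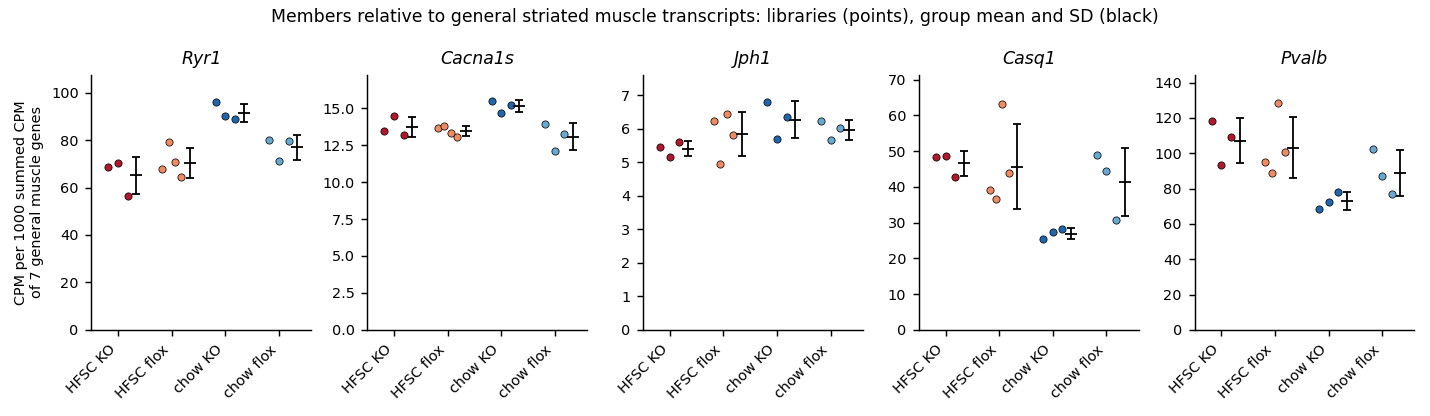
CPM of 5 members per 1000 summed CPM of the 7 general muscle genes (vertical axes, linear), 1 point per library with group mean and SD in black. Ryr1 was highest and Casq1 lowest in the 3 chow KO libraries, at 88.9 to 95.9 and 25.3 to 28.2.

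The balance between the release channel and its voltage sensor also shifted. Per length, Ryr1 stood at 1.42 ± 0.13 times Cacna1s in HFSC KO, 1.57 ± 0.11 in HFSC flox, 1.82 ± 0.06 in chow KO and 1.76 ± 0.04 in chow flox (SD). Jph2 stood at 2.30 ± 0.16 times Jph1 in HFSC KO, 2.24 ± 0.28 in HFSC flox, 2.11 ± 0.13 in chow KO and 2.30 ± 0.15 in chow flox. Chow KO had the lowest mean, and its range (1.97 to 2.22) overlapped those of HFSC KO (2.13 to 2.46) and chow flox (2.12 to 2.41). Neither ratio was tested.

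The windows before the start sites of Ryr1, Cacna1s and Jph2 are shown because these 3 genes varied together most closely. Across the 13 libraries log2 CPM of Ryr1 had a Pearson r of 0.96 with Jph2, 0.94 with Cacna1s and 0.91 with Jph1, values that share the libraries' depth and makeup. RefSeq (GRCm38.p6) promoter rows matched 7 of the 10 members. The 250 bases upstream were searched on both strands for the E-box CANNTG, its muscle-type form CAGCTG, a MEF2-like motif (CTA, 4 bases of any kind, TAG) and the MCAT element CATTCC, and capitals mark matches. The windows are chr7:29125152-29125401 (minus strand), chr1:136052561-136052810 (plus strand) and chr2:163397994-163398243 (minus strand).
Ryr1: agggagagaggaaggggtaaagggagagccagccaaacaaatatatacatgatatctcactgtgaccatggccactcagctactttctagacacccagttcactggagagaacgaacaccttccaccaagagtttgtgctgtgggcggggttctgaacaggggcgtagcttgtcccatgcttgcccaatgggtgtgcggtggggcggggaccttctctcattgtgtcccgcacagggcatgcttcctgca
Cacna1s: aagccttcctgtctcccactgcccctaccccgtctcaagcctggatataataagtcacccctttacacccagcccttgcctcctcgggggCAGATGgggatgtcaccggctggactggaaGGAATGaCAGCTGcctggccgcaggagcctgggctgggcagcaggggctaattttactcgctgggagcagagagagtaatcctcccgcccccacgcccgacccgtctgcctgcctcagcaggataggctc
Jph2: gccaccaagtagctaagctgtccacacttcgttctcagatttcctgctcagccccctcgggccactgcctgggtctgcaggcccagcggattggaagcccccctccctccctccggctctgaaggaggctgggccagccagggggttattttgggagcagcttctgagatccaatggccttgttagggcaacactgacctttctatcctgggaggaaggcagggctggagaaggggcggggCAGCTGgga
Cacna1s held CAGATG and CAGCTG and, between them, a MCAT match read on the other strand, and Jph2 held CAGCTG close to its start. Ryr1 held none of the 4 motifs in this window. CAGCTG lay in 3 of the 7 members with a window (Cacna1s, Jph2, Casq1), against 12.8% of 27025 promoters. CANNTG, which includes CAGCTG, lay in 6 of 7, against 66.0%. The measures differ: a member counted if any of its windows matched (9 windows for the 7 members), while the 27025 promoters were 1 per gene. Pvalb had 1 CANNTG in the window chr15:78204238-78204487 and 0 in chr15:78206401-78206650. MCAT lay in 1 of 7, against 12.6%, and the MEF2-like letters in none, against 3.23%.

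Casq1 and Pvalb, which store and buffer calcium, did not pass the test in any comparison. Casq1, the calsequestrin of fast fibres (chromosome 1, 172209894 to 172219868, minus strand), had 3822, 3471 and 2827 CPM in HFSC KO, against 2197, 2678 and 2820 CPM in chow KO (log2 fold change 0.40 ± 0.21, edgeR adjusted p = 0.175). HFSC KO was above chow KO in every library, though replicate 4 of HFSC KO and replicate 3 of chow KO differed by only a few CPM. HFSC flox replicate 3 had the highest Casq1 of all, 4489 CPM, with the other HFSC flox libraries at 2802 to 3121 CPM and chow flox at 2256 to 2969 CPM (0.30 ± 0.20, adjusted p = 0.566). Per 1000 CPM of general muscle transcripts, Casq1 had 46.6 ± 3.4 in HFSC KO, 45.7 ± 11.9 in HFSC flox, 26.95 ± 1.49 in chow KO and 41.4 ± 9.5 in chow flox. Chow KO was thus lowest in Casq1 and highest in Ryr1 on the same scale.

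Pvalb, the cytosolic buffer of fast fibres (chromosome 15, 78191114 to 78206400, minus strand), had 9362, 6657 and 7226 CPM in HFSC KO, 6787 to 9137 CPM in HFSC flox, 5945 to 7828 CPM in chow KO and 4438 to 7386 CPM in chow flox. In CPM the 4 groups overlapped, and the log2 fold changes were 0.16 ± 0.22 for HFSC against chow in KO, 0.34 ± 0.21 for HFSC against chow in flox, 0.21 ± 0.22 for KO against flox on chow and 0.02 ± 0.21 on HFSC. Per 1000 CPM of general muscle transcripts, Pvalb had 106.9 ± 12.7 in HFSC KO, 103.2 ± 17.5 in HFSC flox, 73.0 ± 4.9 in chow KO and 88.85 ± 12.97 in chow flox. On that scale HFSC KO (93.3 to 118.5) did not overlap chow KO (68.5 to 78.2), which was not tested. Across the 13 libraries log2 CPM of Pvalb had a Pearson r of 0.79 with Casq1 and 0.77 with Stac3, and 0.49 with Jph2, 0.47 with Cacna1s, 0.44 with Jph1 and 0.28 with Ryr1. Casq1 had r = 0.46 with Stac3 and -0.15 to 0.08 with the other 4 coupling genes.

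Slow fibre genes were lower in the HFSC than in the chow libraries, while Casq2, Pln and Sln, which are associated with slow fibres and heart, did not pass the test. The part that the muscle or region sampled plays in the slow fibre difference was not tested. Myh7, the slow myosin heavy chain, had 157.2, 224.8 and 105.7 CPM in HFSC KO, against 3121, 3417 and 3190 CPM in chow KO, and 163.0 to 548.4 CPM in HFSC flox, against 2410 to 3416 CPM in chow flox. Of 9 slow fibre genes, 9 fell in KO (median log2 fold change -3.34) and 8 fell in flox (median -2.60), and 9 and 8 fell without chow flox replicate 4. Of all 16496 tested genes, 1742 fell in KO and 50 in flox with all libraries. Casq2 (chromosome 3, 102086415 to 102146514, plus strand) had 54.6, 104.3 and 92.0 CPM in HFSC KO, against 79.5, 80.5 and 71.4 CPM in chow KO (0.12 ± 0.24, edgeR adjusted p = 0.738). In flox it had 83.7, 42.4, 63.5 and 67.5 CPM on HFSC, against 82.7, 86.2 and 72.5 CPM on chow (-0.32 ± 0.22, adjusted p = 0.588). Casq2 CPM per 100 CPM of Myh7 was accordingly 56.1 ± 27.5 in HFSC KO, 28.0 ± 13.4 in HFSC flox, 2.38 ± 0.16 in chow KO and 2.77 ± 0.70 in chow flox.

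Pln (chromosome 10, 53337667 to 53345987, plus strand) had 9.88, 5.74 and 10.8 CPM in HFSC KO, against 5.08, 8.35 and 7.89 CPM in chow KO, with overlapping groups (0.31 ± 0.39, edgeR adjusted p = 0.574). In flox it had 11.2, 3.597, 4.94 and 5.89 CPM on HFSC, against 10.2, 7.96 and 16.01 CPM on chow (-0.82 ± 0.36, adjusted p = 0.374). Atp2a2, the slow fibre and cardiac pump that Pln restrains, fell in both genotypes, to 286 ± 95 CPM in HFSC KO, against 1868 ± 177 CPM in chow KO (-2.70 ± 0.32, adjusted p = 0.000681), and to 340 ± 137 CPM in HFSC flox, against 1611 ± 245 CPM in chow flox (-2.24 ± 0.28, adjusted p = 0.00502). Atp2a1, the fast fibre pump, did not pass in KO (-0.46 ± 0.25, adjusted p = 0.184) or flox (0.16 ± 0.24). Per length, Atp2a1 made up 99.3% of both pumps in HFSC KO, 99.2% in HFSC flox, 96.6% in chow KO and 95.7% in chow flox.

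**Figure D5:**
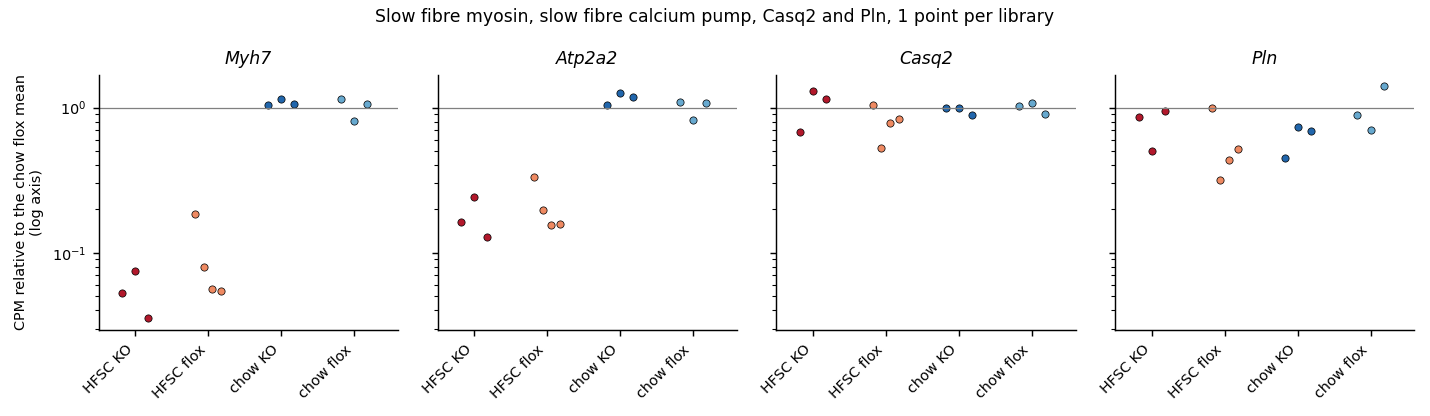
CPM of Myh7, Atp2a2, Casq2 and Pln in every library relative to the chow flox mean of that gene (vertical axis, log scale), 1 point per library, with a grey line at 1. Myh7 and Atp2a2 were lower in all 7 HFSC libraries than in all 6 chow libraries, and Casq2 and Pln overlapped between diets.

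Sln, which restrains both pumps (chromosome 9, 53850164 to 53854560, plus strand), was the most variable member. It had 74.1, 362.5 and 51.2 CPM in HFSC KO, 189.4, 76.7, 134.5 and 188.5 CPM in HFSC flox, 144.2, 36.4 and 10.7 CPM in chow KO and 195.1, 176.6 and 65.9 CPM in chow flox. The highest library was 33.8 times the lowest, while the other 9 members ranged over 1.57 times (Stac3) to 4.45 times (Pln). All 4 groups overlapped, and no comparison passed; the largest difference, HFSC against chow in KO, had a log2 fold change of 1.35 ± 0.86 (edgeR adjusted p = 0.253). It came to -0.03 without HFSC KO replicate 3, the library with 362.5 CPM, and to 2.78 without chow KO replicate 1, the chow KO library with the most Sln. A list of 8 cardiac genes, whose tissue also expresses Sln, Pln and Casq2, summed to 47.2, 106 and 59.7 CPM in HFSC KO replicates 2, 3 and 4, 38.8 to 76.9 CPM in HFSC flox, 22.1 to 47.0 CPM in chow KO and 36.4 to 65.0 CPM in chow flox. In HFSC KO most of the mean sum of 70.9 CPM was Myl4 (37.3) and Tnnt2 (19.5), while Tnni3 averaged 1.80, Mybpc3 1.79 and Nppb 0.301 CPM. Of the 5 cardiac genes with enough counts to test, 3 rose in HFSC KO against chow KO. In that comparison 25.5% of all tested genes passed in either direction, and 2459 of 16496 rose. Myh6, a cardiac myosin heavy chain, was low in HFSC flox, averaging 9.90 CPM in HFSC KO, 2.33 in HFSC flox, 11.2 in chow KO and 9.34 in chow flox. It passed as higher in HFSC KO than in HFSC flox (2.11 ± 0.29, adjusted p = 0.0347) and as lower in HFSC flox than in chow flox (-2.03 ± 0.29, adjusted p = 0.00971), and did not pass between HFSC KO and chow KO (-0.18 ± 0.295). Both calls held without chow flox replicate 4. Myl7, an atrial myosin light chain, was at 0 in all 13 libraries, and Nppa averaged 0.315 CPM in HFSC KO, 0.0871 in HFSC flox, 0.106 in chow KO and 0.117 in chow flox. The part of these transcripts in the Sln values was not tested.

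On HFSC, no member passed the test between KO and flox muscle. The test called 0 of 10 members, against 0.0182% of all tested genes (3 of 16496), no member had non-overlapping groups, against 12.7% of all genes, and 0 members had an unadjusted p under 0.05 or were called by DESeq2. Ryr1 averaged 4728 ± 892 CPM in HFSC KO and 5267 ± 1011 CPM in HFSC flox (SD, log2 fold change -0.16 ± 0.25), and Cacna1s 989.5 ± 101 CPM in HFSC KO and 1002 ± 119 CPM in HFSC flox (-0.02 ± 0.21). The widest of the other values were 0.45 ± 0.36 for Pln and 0.38 ± 0.22 for Casq2.

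In flox muscle, HFSC against chow gave 0 of 10 members called, against 0.418% of all tested genes, and no non-overlapping member, against 9.86%. The count at an unadjusted p under 0.05 was 1, Pln, and DESeq2 called 0. Ryr1 averaged 5267 ± 1011 CPM in HFSC flox and 5376 ± 2083 CPM in chow flox (-0.03 ± 0.24), where replicate 4 widens the chow SD. Without that library 0 members passed, against 8.58% of all genes tested, and Ryr1 turned to a log2 fold change of 0.32 (adjusted p = 0.319). The difference between the diet effects in KO and in flox was tested directly as the genotype by diet interaction, which called 0 of 10 members and 0.0% of all tested genes, although 4811 genes had an unadjusted p under 0.05 and DESeq2 called 2025. Among members, 3 had an unadjusted p under 0.05: Ryr1 (-0.85 ± 0.36, adjusted p = 0.148), Jph1 (-0.66 ± 0.28, adjusted p = 0.144) and Cacna1s (-0.68 ± 0.30, adjusted p = 0.162). DESeq2 called 0 members. Without chow flox replicate 4, edgeR called 5 members: Ryr1 (-1.20), Cacna1s (-0.997), Jph1 (-0.99), Jph2 (-0.78) and Stac3 (-0.54). In the same fit 34.9% of all genes tested passed in either direction, 5928 in all, which is a high background. Of 16972 genes tested, 2737 passed with a negative value, as all 5 members did.

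Other genes of the pathway were counted in 5 lists. For HFSC KO against chow KO the background was 25.5% of all tested genes called, with 10.6% called lower. The triad list had 15.4% called and the pump list 37.5%, all lower. Of 13 further genes of the voltage sensor and triad, 2 fell and none rose in HFSC KO against chow KO. They were Speg, a kinase of the triad, at 310 ± 100 CPM in HFSC KO and 632 ± 30 CPM in chow KO (-1.03 ± 0.26, edgeR adjusted p = 0.0169), and Cacng6, a calcium channel subunit, at 87.0 ± 18.1 CPM in HFSC KO and 155.9 ± 5.9 CPM in chow KO (-0.84 ± 0.24, adjusted p = 0.0244). The median of the list was -0.44. Of 9 pump and reticulum genes, 8 were tested and 3 fell: Atp2a2, Strit1 and Tmem38b, a counter-ion channel of the reticulum, at 79.3 ± 8.1 CPM in HFSC KO and 121.0 ± 4.1 CPM in chow KO (-0.61 ± 0.14, adjusted p = 0.0117). Strit1, whose small peptide DWORF activates the pump, had 5 reads in all HFSC KO libraries together (95% exact Poisson interval 1.62 to 11.7), against 263 in chow KO (232 to 297), and 54 in HFSC flox (40.6 to 70.5), against 257 in chow flox (226 to 290). Strit1 and Atp2a2 were the 2 genes of the list that passed in flox, where 0.418% of all tested genes passed.

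Of 12 calcium sensors, kinases and phosphatases, 6 fell and none rose in HFSC KO against chow KO, with a list median of -0.52, against a median of 0.02 and 10.6% called lower over all tested genes. The 4 with the smallest p were Camk2a, at 276 ± 54 CPM in HFSC KO and 538 ± 51 CPM in chow KO (-0.96 ± 0.27, edgeR adjusted p = 0.0236) and Camk2g (-0.54 ± 0.17, adjusted p = 0.0338), subunits of a calmodulin-dependent kinase, Ppp3cb, a calcineurin catalytic subunit (-0.80 ± 0.24, adjusted p = 0.0301), and Calm3, a calmodulin gene (-0.75 ± 0.24, adjusted p = 0.0377). Of 11 genes of membrane excitation, 2 fell: Clcn1, the muscle chloride channel, at 147 ± 22 CPM in HFSC KO and 271 ± 6 CPM in chow KO (-0.88 ± 0.21, adjusted p = 0.0121), and Scn4a, the muscle sodium channel, at 364 ± 111 CPM in HFSC KO and 733.6 ± 14.8 CPM in chow KO (-1.01 ± 0.27, adjusted p = 0.0192). The median of this list was -0.23, and 18.2% of it was called lower, against 10.6% of all tested genes.

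Store-operated and mitochondrial calcium genes were mixed, with 18.2% called in HFSC KO against chow KO, against 25.5% of all tested genes. Of 11, Micu3, a regulator of mitochondrial calcium uptake, fell, with 18.4 ± 2.3 CPM in HFSC KO and 27.0 ± 1.7 CPM in chow KO (-0.55 ± 0.18, edgeR adjusted p = 0.0404), and Orai2, a plasma membrane calcium channel, rose. Orai2 had 4.40, 5.15 and 4.79 CPM in HFSC KO, against 2.01, 1.16 and 0.948 CPM in chow KO (1.78 ± 0.34, adjusted p = 0.00544). On chow, Orai2 fell in KO against flox, whose replicates 2, 3 and 4 had 3.84, 5.18 and 1.94 CPM (-1.41 ± 0.34, adjusted p = 0.0254), and so did Slc8b1, a mitochondrial sodium-calcium exchanger, at 8.86 ± 1.06 CPM in chow KO and 15.3 ± 4.5 CPM in chow flox (-0.79 ± 0.22, adjusted p = 0.0390). With all 13 libraries these were the 2 genes of all 5 lists called on chow, of 55 tested (3.64%, against 11.5% of all tested genes). No gene of the 5 lists passed for KO against flox on HFSC or for the interaction, and Atp2a2 and Strit1 alone passed for HFSC against chow in flox. Without chow flox replicate 4, Orai2 (-1.69, adjusted p = 0.0005) and Slc8b1 (-0.98, adjusted p = 0.0015) again fell on chow, and 29 other genes of the lists rose in chow KO. In that fit 25 fell and 2 rose in the interaction, 6 rose and 3 fell for HFSC against chow in flox, and 23 fell and 1 rose for HFSC against chow in KO, against 14 fallen and 1 risen with all libraries. No list gene passed for KO against flox on HFSC in that fit. On chow it called 56.4% of the 55 genes and 42.8% of all genes tested. These 2 shares were 49.1% and 34.9% in the interaction, and 16.4% and 8.58% for HFSC against chow in flox. For HFSC against chow in KO they were 43.6% and 36.0%, and 27.3% and 25.5% with all libraries.

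The genes whose pattern across the 13 libraries was most like each member were taken from the 7939 genes whose mean reached 10 CPM. They were Eif4g1 (Pearson r = 0.988), Sptb and Gstp1 for Ryr1, Rnf10 (0.986), Trap1 and Actn3 for Cacna1s, Extl3 (0.976), Cops7a and Pcyt1a for Jph2, Ccdc186, Elp3 and Svip (each 0.97) for Jph1, and Man2a2 (0.957), Tmod1 and Tpm1 for Stac3. For Casq1 they were Sypl2 (0.887), Rab40b and Cars2, and for Pvalb Klhdc2 (0.954), Rtn4 and Sh3bgr. For Sln they were Krt18 (0.974), Sh3d19 and Plekhh1. Casq2 (Anapc7, 0.831, then Rrp36 and Myl12a) and Pln (Emc8, 0.758, then Zfp9 and Acaca) had no gene as close. Jph1, Ryr1, Cacna1s and Jph2 had r of 0.90 to 0.94 with the first principal component, the axis that sets chow KO and chow flox replicate 4 apart. Sln had r = -0.71 with it and Casq2 r = -0.05.

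Whether the counting separated reads of overlapping genes on opposite strands is not known, since the strand setting is not given in the sources used here. The antisense gene Gm37759 shares 1309 exon bases with Cacna1s, Gm26604 shares 864 with Ryr1, Gm17224 shares 156 with Casq1 and Cep85l shares 141 with Pln. Gm47644, also on the strand opposite to Pln, shares 1644 exon bases with Pln and has no row in the count table. Whether reads of Gm47644 were counted for Pln was not tested. Gm37759 averaged 3.69 CPM in HFSC KO and 5.64 CPM in chow KO, and Gm26604 4.70 CPM in HFSC KO and 6.89 CPM in chow KO, which is small beside Cacna1s and Ryr1. These levels do not show how many reads in the shared bases went uncounted for Cacna1s or Ryr1, which was not tested. Cep85l was higher than Pln, at 51.5 ± 15.3 CPM in HFSC KO, 18.7 ± 3.7 in HFSC flox, 40.1 ± 16.5 in chow KO and 26.4 ± 3.4 in chow flox, and how many of its reads were counted for Pln was not tested.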

How the data were processed

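The authors deposited raw read counts per Ensembl gene as 1 table with 13 count columns. The submitters' processing notes name Trimmomatic 0.36, STAR 2.5.2b, featureCounts, Subread 1.5.2 and build GRCm38; annotation release, strandedness and handling of multi-mapping reads were not given in any source at hand. Symbols for 49056 of 49315 rows, coordinates and exon lengths came from GENCODE M21. The main test was edgeR (4.0.16, R 4.3.3), quasi-likelihood with robust estimates, on all 13 libraries as 4 group means after trimmed mean of M values (TMM) scaling and filterByExpr. Adjusted p-values are Benjamini-Hochberg over all 16496 genes, with a threshold of 0.05. SE was taken as the size of the log2 fold change divided by √F. CPM uses TMM library sizes, and correlations are over log2 CPM (prior count 2). Replicates differed by more than sampling noise in every group (chi-square per degree of freedom 10.5 to 193). Intervals and the floor of 3 counts cover counting error only. The test was also run on simulated data.

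The 10 members and the gene lists were chosen with earlier results of these data known. In the lists, up to 4 called genes per list, direction and comparison with the smallest p are named, and 3 nearest genes per member. Arln, a regulator of the pump, was not matched and is not analysed here; Strit1 was matched through another symbol. Alternatives were RLE size factors, library totals, DESeq2 1.42.0, no filter, only the groups compared, the replicate number as a block and leaving out each library.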

Additional observations from a re-analysis of the deposited data

How the results depend on the processing

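Members called in HFSC KO against chow KO numbered 2 in the report, 4 with DESeq2 and 4 with only the groups compared, where Cacna1s and Jph2 joined, and 3 with library totals, where Casq1 joined as higher in HFSC KO (log2 fold change 0.58). The count ran from 0 to 4 when each library was left out. It was 0 without any chow KO replicate or without HFSC KO replicate 3 or 4, and 4 without chow flox replicate 3 or 4. For KO against flox on chow the members called were 2 with DESeq2 and 1 with library totals (Cacna1s), and ran from 0 to 5 over left-out libraries. For the interaction they ran from 0 to 5. Both counts of 5 came from leaving out chow flox replicate 4, and every other left-out library gave 0. For KO against flox on HFSC and HFSC against chow in flox no alternative called a member.

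Over all genes, KO against flox on chow gave 1898 calls, 3256 with DESeq2, 3096 with library totals, 2 with only the groups compared, and 0 to 7261 over left-out libraries. The count was 0 when chow KO replicate 2 or 3 or chow flox replicate 3 was left out, 452 for chow flox replicate 2 and 929 for chow KO replicate 1. HFSC against chow in KO gave 4201 calls and 1459 to 6112 over left-out libraries, the lowest without chow KO replicate 3. HFSC against chow in flox gave 69 calls, 392 with DESeq2, 4 with only the groups compared, and 15 to 1456. KO against flox on HFSC gave 3 calls, 165 with DESeq2, 22 with no filter, 0 with library totals, 0 with only the groups compared, and 0 to 20. The interaction gave 0 calls, 2025 with DESeq2, 161 with no filter, and 0 to 5928, the highest without chow flox replicate 4. The cause of these shifts was not tested.

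The replicate numbers showed no sign of pairing the samples: the correlation of deviations in the 16 same-numbered pairs ran from -0.341 to 0.109. In differently numbered pairs it ran from -0.413 to 0.395. Deviations from means of only 3 or 4 libraries cannot settle whether the samples were paired. With the replicate block, 0 members were called in HFSC KO against chow KO, where the whole table had 2382 calls, and KO against flox had 0 calls on chow and 0 on HFSC. The block turned the sign of small uncalled values: Casq1 (-0.064) and Pvalb (-0.052) for KO against flox on HFSC, Ryr1 (0.008) and Sln (-0.241) for HFSC against chow in flox, and Casq1 (-0.024) in the interaction.

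Scaling by library totals moved the median change over all tested genes, in log2 units, by -0.345 for KO against flox on chow, 0.182 for HFSC against chow in KO, -0.15 for HFSC against chow in flox and 0.332 in the interaction. Under it the sign turned for Pvalb (-0.102) and Stac3 (-0.05) on chow, Casq1 (-0.01) for KO against flox on HFSC, Sln (-0.208), Jph1 (-0.026) and Jph2 (-0.058) for HFSC against chow in flox, Stac3 (0.007) for HFSC against chow in KO, and Pvalb (0.112) in the interaction. Casq1 for KO against flox on HFSC was -0.007 with RLE size factors and -0.007 with DESeq2.

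Leaving out each library turned these uncalled signs. For KO against flox on chow, Casq1 ran from -0.229 to 0.014. For KO against flox on HFSC, Cacna1s ran from -0.07 to 0.068, Casq1 from -0.093 to 0.176, Sln from -1.233 to 0.548 and Pvalb from -0.132 to 0.125. For HFSC against chow in flox, Ryr1 ran from -0.23 to 0.319, Cacna1s from -0.061 to 0.459, Sln from -0.333 to 0.288, Jph1 from -0.13 to 0.379 and Jph2 from -0.116 to 0.291. For HFSC against chow in KO, Casq2 ran from -0.074 to 0.347, Sln from -0.028 to 2.784 and Pvalb from -0.002 to 0.255. In the interaction, Casq1 ran from -0.008 to 0.265, Sln from -0.043 to 2.769 and Pvalb from -0.361 to 0.003. In all, 48 of 940 member fold changes turned sign under an alternative, and in 0 of these was either value called. Pln, with 71 to 420 reads per library, is the member for which depth limits the precision most.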
